A study of Mus musculus with 8 samples.

Results

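The Kruppel-like factors described here were Klf2, Klf3, Klf4, Klf5, Klf6, Klf7, Klf9, Klf10, Klf13 and Klf15, chosen as every probe of the array whose gene name in the scanner files is one of these symbols. They were 10 of 27745 gene names on the array and had 18 of its 41174 gene probes. Transcripts were measured in mouse embryonic fibroblasts (MEFs), cells grown out of embryos, from Lats2-/- embryos and their Lats2+/+ littermates. Lats2 encodes a kinase of the Hippo pathway, which restrains the coactivators Yap and Taz. Each of 3 litters, numbered 112, 116 and 121, gave 1 Lats2-/- and 1 Lats2+/+ RNA extract, each from 1 culture with its own clone name. All 6 extracts carry the strain name C57BL/6J, came from untreated cells in serum-containing medium, and have no embryonic age in the sources used here. Both extracts of a litter were hybridised to the same two-colour Agilent arrays, on 2 arrays for litters 112 and 116 and on 4 arrays for litter 121, with the dyes exchanged between arrays. The comparison therefore asked, within each litter, how far a Klf transcript in Lats2-/- cells lay from that in their Lats2+/+ littermate, and whether the 3 litters gave the same answer.

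Kruppel-like factors are transcription factors with a run of C2H2 zinc fingers at the C-terminus that bind GC-rich and CACCC-containing DNA, the same kind of element that Sp1 and its relatives bind. Klf2, Klf4, Klf5, Klf6 and Klf7 carry activating regions and are tied to growth arrest, differentiation and proliferation, with Klf4 also known as a reprogramming factor. Klf3 recruits the corepressor CtBP, whereas Klf9, Klf10 and Klf13 recruit the Sin3a corepressor complex, and Klf15 is known for its part in metabolism. In fibroblasts several of them (Klf2, Klf4, Klf6 and Klf10) belong to the early response to serum or growth factors, together with Fos and Egr1.

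Values below are log2 signals, whose level can be compared between extracts for 1 probe but not between probes, and log2 ratios of Lats2-/- over Lats2+/+, given as the mean of a litter's arrays. A log2 ratio of 1 is a 2-fold difference. Probes had to be flagged well above background in 2 or more of the 3 Lats2-/- or the 3 Lats2+/+ extracts, which held for 16 of the 18 Klf probes and 22642 of all gene probes. Each of the 10 genes had at least 1 kept probe, and 6 had 2. The probe with the highest mean signal stands for a gene and the other is given beside it. Of the 2 probes left out, the second Klf5 probe (A_52_P54463) was above background on 0 of 8 arrays in either genotype, and the second Klf13 probe (A_52_P281659) on 5 arrays in Lats2-/- and 2 in Lats2+/+.

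The targeted gene gave a mixed check. The most upstream Lats2 probe (A_52_P425064) was lower in Lats2-/- cells of all 3 litters, with values of -1.33 (litter 112), -1.05 (litter 116) and -0.56 (litter 121) as log2 ratios. The other 3 Lats2 probes ran from -0.70 to -0.18 in the first 2 of these litters but from 0.80 to 1.17 in litter 121. Which part of the gene is deleted was not given in the sources used here. Of 8 fibroblast markers all 8 were kept, with median log2 ratios of 0.10, 1.95 and -0.93 across litters 112, 116 and 121. In the Lats2-/- extract of litter 121 the signal of Pdgfra, a receptor typical of fibroblasts, was 6.30 against 11.26 in its littermate. The log2 summed signal of the fibroblast list ran from 17.69 to 18.75 in Lats2-/- and from 17.52 to 18.59 in Lats2+/+ extracts, and that of the macrophage and blood list, 3 of 5 kept, from 8.97 to 11.87 and from 8.87 to 9.29. The top of that range was the Lats2-/- extract of litter 121, where Lyz2 (a macrophage enzyme) had a log2 ratio of 3.40 but Cd68 and Csf1r had -0.16 and -0.08 and Ptprc was above background on 0 arrays. Of 5 endothelial markers 1 was kept, with Pecam1, Cdh5 and Tie1 above background on 0 arrays, and of 6 epithelial markers 2 were kept. Cdh1, an epithelial adhesion protein, was not kept but was above background on 4 of 4 arrays in the Lats2-/- extract of litter 121 and on 0 arrays in any Lats2+/+ extract, with a signal of 7.16 against 6.07. The endothelial receptor Kdr was likewise above background on 4 arrays, in the same extract (6.61 against 6.11), while the epithelial markers Epcam, Krt8 and Krt18 were above background on 0 arrays of any Lats2-/- extract. Among Lats2+/+ arrays Krt8 and Krt18 were above background on 2 each and Epcam on 0. Krt8 and Krt18 had their highest signals, 6.53 and 6.41, in the Lats2+/+ extract of litter 116. In extracts of whole cultures, fewer cells of a type and less RNA per cell cannot be told apart.

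None of the 16 Klf probes passed an adjusted p of 0.05 in the limma test of the 3 litter ratios, where 0% of all kept probes passed, and none had an unadjusted p under 0.05, against 6.84% of all kept probes. Likewise 0 Klf probes had both a mean ratio past 2-fold and such an unadjusted p (0.835% of all kept probes). The mean was above 0 for 7 of the 10 genes and below 0 for 3, with a median of 0.10 against 0.01 over 15145 genes. The litters of a gene often disagreed in sign. A single probe, that of Klf13, had a ratio of the same sign in all 3 litters, where 29.7% of all kept probes did. The litter ratios of 15 of the 16 probes differed from each other by more than array error in limma's test of the arrays (72.7% of all kept probes), the exception being the brighter Klf2 probe. That test compares extracts, not genotypes, since the arrays of a litter repeat the same 2 extracts. It depended on the normalization, 1 of the 16 probes (2.54% of all kept probes) passing when arrays were centred on their median in place of loess. The median SD of arrays within litters, which the test uses as error, was then 0.70 in place of 0.10. Both Klf15 probes are among the 15, though they were above background on 0 Lats2-/- arrays in litter 112.

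**Figure D1:**
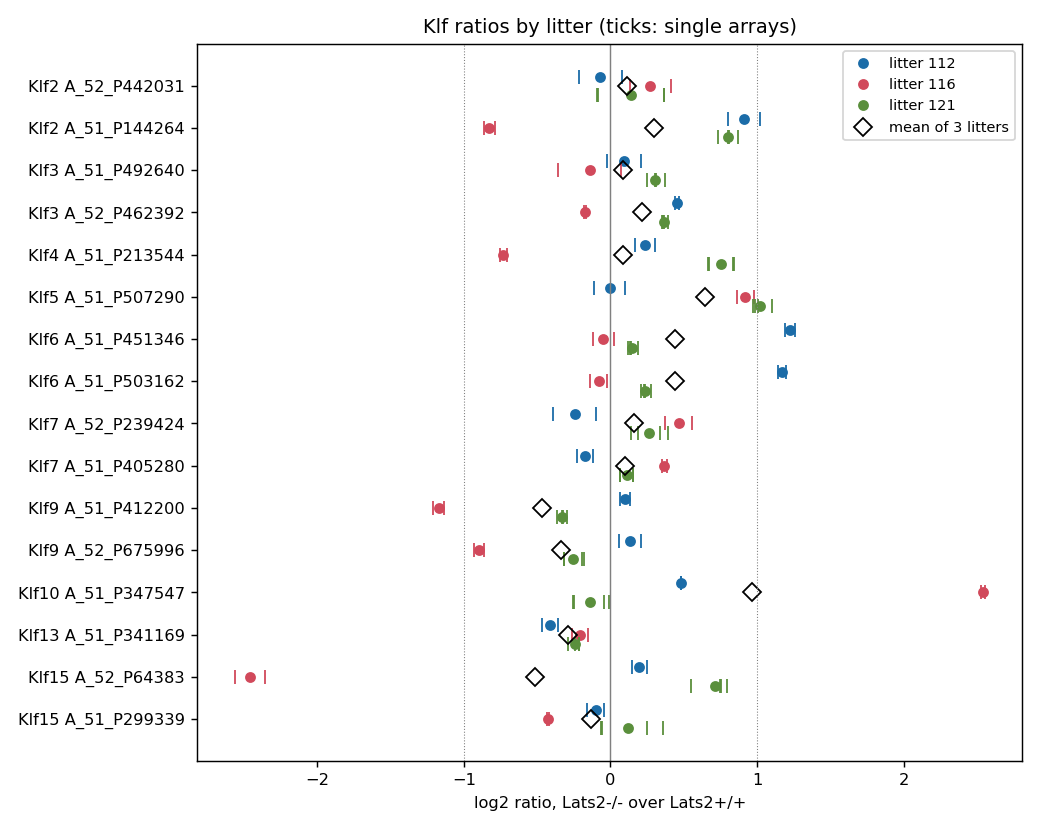
Log2 ratios of Lats2-/- over Lats2+/+ (horizontal axis) for the 16 kept Klf probes (vertical axis, gene and probe), with ticks for single arrays, filled circles for litter means and diamonds for the mean of 3 litters; dotted lines mark 2-fold, and the litter 112 points of the Klf15 probe A_52_P64383 are at background in both genotypes. The litters of Klf10 and of the representing Klf15 probe lie on both sides of 0, with litter 116 at 2.54 and -2.46, further apart than their ticks, while the 4 ticks of the brighter Klf2 probe in litter 121 run from -0.09 to 0.37, wider than its litter means.

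Within single litters the 2 extracts often differed. Beyond array error, limma called a difference at an adjusted p under 0.05 for 10 Klf probes in litter 112 (51.2% of all kept probes), 12 in litter 116 (59%) and 14 in litter 121 (60.3%). These were 36 calls over the 3 litters, and with median centring in place of loess there was 1 (1.88% over all kept probes and litters). The 10 and the 36 include the representing Klf15 probe in litter 112, where it was above background on 0 arrays in either genotype. Differences of at least 2-fold were fewer. In litter 112 both Klf6 probes passed 2-fold (3.77% of all kept probes), in litter 116 Klf9, Klf10 and Klf15 did with 1 probe each (7.71%), and in litter 121 Klf5 did (6.09%). No gene passed 2-fold in more than 1 litter. The median log2 ratio of the 10 genes was 0.10, -0.10 and 0.20 in litters 112, 116 and 121, and the range in litter 116, from -2.46 to 2.54, was wider than from -0.41 to 1.22 in litter 112 and from -0.33 to 1.02 in litter 121.

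Klf10, the TGF-beta-inducible early gene product, had the largest ratio of any member in a single litter. Its signal (A_51_P347547, chr15:38239377-38239436 on the mm8 build, minus strand) in litters 112, 116 and 121 was 10.84, 10.03 and 9.10 in Lats2-/- cells and 10.36, 7.49 and 9.24 in Lats2+/+ cells. The Lats2+/+ extract of litter 116 was the lowest of the 6, by 1.61 below the next, while the Lats2-/- extract of that litter was the third highest. The log2 ratios were 0.48, 2.54 and -0.14, a 1.40-fold, a 5.82-fold and a 0.909-fold ratio. Both arrays of litter 116 gave nearly the same value, 2.55 and 2.53. The mean of 0.96 ± 1.40 (SD, n = 3 litters) had an unadjusted p of 0.183 (adjusted p = 0.762). Leaving out litter 116 lowered it to 0.17, and leaving out litter 112 or 121 raised it to 1.20 and 1.51. In litter 116 7 of the 8 fibroblast markers were higher in Lats2-/- cells, from Pdgfra at 0.13 to Col3a1 at 3.70, and Vim was at -1.19, and the part of such genes in the Klf10 value was not tested.

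By the distance between litter ratios, the 5 genes with the pattern most like Klf10 among all kept probes were Dpep1, Meox1, Mtap1b, Lims2 and Fn1, at distances from 0.15 to 0.28 over 3 litters. Their ratios in litter 116 ran from 2.34 for Mtap1b to 2.68 for Meox1. With 3 litters such likeness rests on litter 116, and it is a description of these arrays.

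Klf9, which like Klf10 can recruit Sin3a and is known as a target of glucocorticoid and thyroid hormone receptors, moved the other way in litter 116. The signal of its brighter probe (A_51_P412200, chr19:23232745-23232804, plus strand) was 9.18, 8.93 and 8.42 in Lats2-/- and 9.08, 10.10 and 8.75 in Lats2+/+ extracts of litters 112, 116 and 121. Here the Lats2+/+ extract of litter 116 was the highest of the 6, by 0.92, and the other 5 ran from 8.42 to 9.18. The log2 ratios were 0.10, -1.17 and -0.33, and their average of -0.47 ± 0.65 (SD, n = 3 litters) had a limma p of 0.181 before and 0.761 after adjustment. The second Klf9 probe, at chr19:23231944-23232003, also had its highest level in the Lats2+/+ extract of litter 116 and gave 0.13, -0.90 and -0.25. Leaving out litter 116 moved the averages of the 2 probes from -0.47 and -0.34 to -0.11 and -0.06. Without litter 112 the averages were -0.75 and -0.57.

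Klf13, the third Sin3a-recruiting member, was the only member lower in Lats2-/- cells of every litter. The probe (A_51_P341169) spans chr7:63770693-63816921 on the minus strand, so its bases are not contiguous in that build. Its signal was 9.53, 10.02 and 9.42 in Lats2-/- and 9.95, 10.23 and 9.66 in Lats2+/+ extracts. The pairs were ordered alike but the genotypes overlapped, since the Lats2-/- extract of litter 116 was above the Lats2+/+ extracts of litters 112 and 121. The log2 ratios of -0.41, -0.21 and -0.24 had the smallest spread between litters of the 16 kept Klf probes, and their mean was -0.29 ± 0.11 (SD, n = 3 litters), a 0.819-fold ratio. The limma p was 0.0541 before and 0.711 after adjustment, past neither threshold. The second Klf13 probe, mostly at background, gave ratios of -0.03, 0.04 and 0.26.

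Klf5, a factor of proliferating epithelial and smooth muscle cells that acts downstream of growth signals and whose protein is turned over through the ubiquitin ligase Wwp1, was higher in Lats2-/- cells of 2 litters. Its probe (A_51_P507290), aligned over chr14:98186571-98196303 on the plus strand, had signals of 7.83, 8.32 and 8.33 in Lats2-/- and 7.84, 7.40 and 7.32 in Lats2+/+ extracts. The Lats2-/- extracts of litters 116 and 121 were thus the highest of the 6 and their Lats2+/+ littermates the lowest, with both extracts of litter 112 between them at nearly the same level. The log2 ratios were -0.01, 0.92 and 1.02, or 1.89-fold and 2.02-fold in litters 116 and 121. Markers of several cell types moved in litter 121 (Cdh1 at 1.09, Kdr at 0.50, Lyz2 at 3.40, Thy1 at -3.66 and Pdgfra at -4.96). In litter 116 Lyz2 was at 0.95, Thy1 at 2.05 and Pdgfra at 0.13, and Cdh1 and Kdr were above background on 0 arrays. The part of these markers in the Klf5 values of both litters was not tested. The Klf5 ratios averaged 0.64 ± 0.56 (SD, n = 3 litters), with a limma unadjusted p of 0.0670 (adjusted p = 0.716). Leaving out litter 112 raised the average to 0.97 (limma unadjusted p = 0.00835, adjusted p = 0.890), and leaving out litter 116 or 121 lowered it to 0.51 and 0.46 (limma unadjusted p = 0.226 and 0.226).

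Klf6, an early-response factor studied in injured liver, was higher in Lats2-/- cells of litter 112. The brighter probe (A_51_P451346, chr13:5869371-5869430, plus strand) read 14.47, 12.64 and 13.45 in Lats2-/- and 13.25, 12.69 and 13.30 in Lats2+/+ extracts. The Lats2-/- extract of litter 112 stood 1.03 above the next highest extract, and in litter 116 both genotypes shared the lowest levels. The log2 ratios were 1.22, -0.05 and 0.15, and the second probe, at chr13:5866706-5866765, gave 1.17, -0.08 and 0.24. Both probes had a mean of 0.44, with limma unadjusted p-values of 0.221 and 0.201. Without litter 112 the means were 0.05 and 0.08.

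Klf4 was higher in Lats2-/- cells of litters 112 and 121 and lower in litter 116. Its probe (A_51_P213544, chr4:55549061-55549120, minus strand) read 14.37, 13.39 and 13.20 in Lats2-/- and 14.14, 14.12 and 12.45 in Lats2+/+ extracts. Both extracts of litter 121 were the lowest, the Lats2-/- extract of litter 112 was the highest, and the Lats2+/+ extracts of litters 112 and 116 were not told apart, lying within 2 array SDs. The log2 ratios of 0.23, -0.73 and 0.75 were each beyond array error, with adjusted p-values of 0.0131, 1.25e-05 and 8.55e-07 in limma's fit of the arrays. They averaged to 0.09 ± 0.75 (SD, n = 3 litters; unadjusted p = 0.809).

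Klf2, a factor known for the response of vessel walls to flow, was measured by 2 probes that disagreed. The brighter (A_52_P442031, chr8:75248851-75248910, plus strand) read 13.63, 13.94 and 14.23 in Lats2-/- and 13.70, 13.67 and 14.09 in Lats2+/+ extracts. Its log2 ratios of -0.07, 0.27 and 0.14 were not told apart from 0 in any litter (adjusted p from 0.117 to 0.710), and no neighbouring extracts in the order differed by more than 2 array SDs, an array SD being 0.17 log2 units. The other probe (A_51_P144264, chr8:75250227-75250286) lies 1316 bp further along the strand. It read 12.64, 11.67 and 11.41 in Lats2-/- and 11.72, 12.49 and 10.61 in Lats2+/+ extracts, with log2 ratios of 0.91, -0.83 and 0.80 that each passed the test within the litter. The 2 probes differed by 0.98, -1.10 and 0.66 in the 3 litters and had the same sign in 1 litter. Their means over the litters were 0.11 and 0.30, with limma unadjusted p-values of 0.392 and 0.517. Leaving out litter 116 moved the second to 0.86 (limma unadjusted p = 0.00803, adjusted p = 0.834).

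The 2 probes of Klf3, the CtBP-recruiting member, gave the same signs. The brighter (A_51_P492640, chr5:65101464-65102044, plus strand) read 9.86, 9.41 and 9.18 in Lats2-/- and 9.77, 9.56 and 8.88 in Lats2+/+ extracts. The log2 ratios were 0.09, -0.14 and 0.31 with this probe and 0.46, -0.18 and 0.37 with the second (A_52_P462392, chr5:65108439-65108498). With both probes, as with Klf4, the Lats2+/+ extract of litter 121 was the lowest, while 2 of the 5 pairs of neighbours in the order of the brighter probe lay within 2 array SDs and are not told apart. Their means of 0.09 and 0.22 had unadjusted p-values of 0.556 and 0.279.

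A ratio in litter 116 opposite in sign to both other litters was found for 7 Klf probes (Klf3 and Klf6 with 2 probes each, and 1 probe each of Klf2, Klf4 and Klf15), where 23.3% of all kept probes had it. This counts signs alone: the Klf15 probe was at background in litter 112, the Klf6 ratios in litter 116 (-0.05 and -0.08) were within array error, and so were those of the brighter Klf3 probe in litters 112 and 116 (0.09 and -0.14). The sequences before the start of Klf2, Klf3 and Klf4 are shown as these genes, chosen after their values were seen, followed that pattern by 1 probe each with ratios beyond array error in all 3 litters and signals above background in all 6 extracts. They are the 250 bases upstream of the RefSeq start on GRCm38.p6, read along the strand of the gene, at chr8:72318812-72319061 (plus), chr5:64803271-64803520 (plus) and chr4:55532476-55532725 (minus). Capitals mark CACCC or its complement GGGTG, the GC box GGGCGG or its complement CCGCCC, and a match to the binding motif of Mef2 factors, searched on both strands.
Klf2: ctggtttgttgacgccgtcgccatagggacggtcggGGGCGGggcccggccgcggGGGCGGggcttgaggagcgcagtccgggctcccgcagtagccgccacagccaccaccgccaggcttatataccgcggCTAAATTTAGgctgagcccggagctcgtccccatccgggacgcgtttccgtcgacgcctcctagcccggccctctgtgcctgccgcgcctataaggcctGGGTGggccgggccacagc
Klf3: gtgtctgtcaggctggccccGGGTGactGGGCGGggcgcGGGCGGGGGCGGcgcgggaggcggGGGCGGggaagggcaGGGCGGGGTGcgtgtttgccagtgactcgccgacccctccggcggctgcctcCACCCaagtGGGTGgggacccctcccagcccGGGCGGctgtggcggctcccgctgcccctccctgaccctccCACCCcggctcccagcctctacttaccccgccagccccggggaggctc
Klf4: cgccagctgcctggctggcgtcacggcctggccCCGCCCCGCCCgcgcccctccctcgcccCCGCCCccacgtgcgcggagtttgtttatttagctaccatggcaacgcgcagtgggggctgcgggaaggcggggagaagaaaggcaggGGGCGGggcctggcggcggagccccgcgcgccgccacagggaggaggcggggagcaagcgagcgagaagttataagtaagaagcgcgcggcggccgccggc
The Klf3 window held 5 CACCC matches and 6 GC boxes, 1 CACCC match sharing bases with a GC box. The Klf4 window held 0 CACCC matches and 4 GC boxes, and the Klf2 window held 1 CACCC match, 2 GC boxes and the Mef2 match.

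RefSeq promoters were matched for 8 of the 10 members, all but Klf5 and Klf10. CACCC was present in 6 of these 8 windows, against 52.0% of 32851 promoter windows of the same length, and the GC box in 7 of 8, against 32.7%. The letters GGAATG, bound by the Tead factors that Yap works through, were in 0 of 8 windows (12.6% of all windows), and the CArG box bound by Srf in 0 of 8 (1.47%). The Mef2 motif was in 1 of 8 (2.92%). The member windows were GC-rich, from 59.2% in Klf7 to 78.4% in Klf3, with a median of 52.4% over all windows. A match describes the letters of a window and was not tied to any value on the arrays.

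Klf7, best known from neurons, was lower in Lats2-/- cells of litter 112 and higher in the other 2 litters. Its brighter probe (A_52_P239424, chr1:63967840-63967899, minus strand) read 10.44, 9.77 and 10.24 in Lats2-/- and 10.68, 9.31 and 9.97 in Lats2+/+ extracts. Litter 112 was highest and litter 116 lowest in both genotypes. The log2 ratios were -0.24, 0.46 and 0.26 with this probe and -0.17, 0.37 and 0.11 with the second (A_51_P405280, chr1:64013046-64013105). The means of 0.16 and 0.10 had unadjusted p-values of 0.422 and 0.528 in limma. Leaving out litter 112 moved that of the brighter probe to 0.36, and leaving out litter 116 to 0.0098.

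Klf15 had the largest spread between litters, with signals close to background in several extracts. Its representing probe (A_52_P64383, chr6:90440517-90440576, plus strand) read 6.18, 6.77 and 7.85 in Lats2-/- and 5.98, 9.23 and 7.14 in Lats2+/+ extracts. In litter 112 it was above background on 0 arrays in either genotype, so that no ratio is given there. The Lats2+/+ extract of litter 116 stood 1.38 above the next, and the log2 ratio was -2.46 in that litter, 5.50-fold higher in Lats2+/+, against 0.71 in litter 121. The second probe (A_51_P299339, chr6:90439701-90439760) gave -0.43 in litter 116 and 0.12 in litter 121, with signals from 6.30 to 7.23. Its ratio in litter 121 was within array error (adjusted p = 0.177 in limma's fit of the arrays), with the Lats2+/+ signal above background on 1 of 4 arrays, so the probes can be compared in litter 116, where both were below 0 and differed by 2.03. The fitted mean of the representing probe, which includes litter 112, was -0.52 ± 1.70 (SD, n = 3 litters; limma unadjusted p = 0.512) and was 0.45 without litter 116, a sign that rests in part on the background-level ratio of litter 112.

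**Figure D2:**
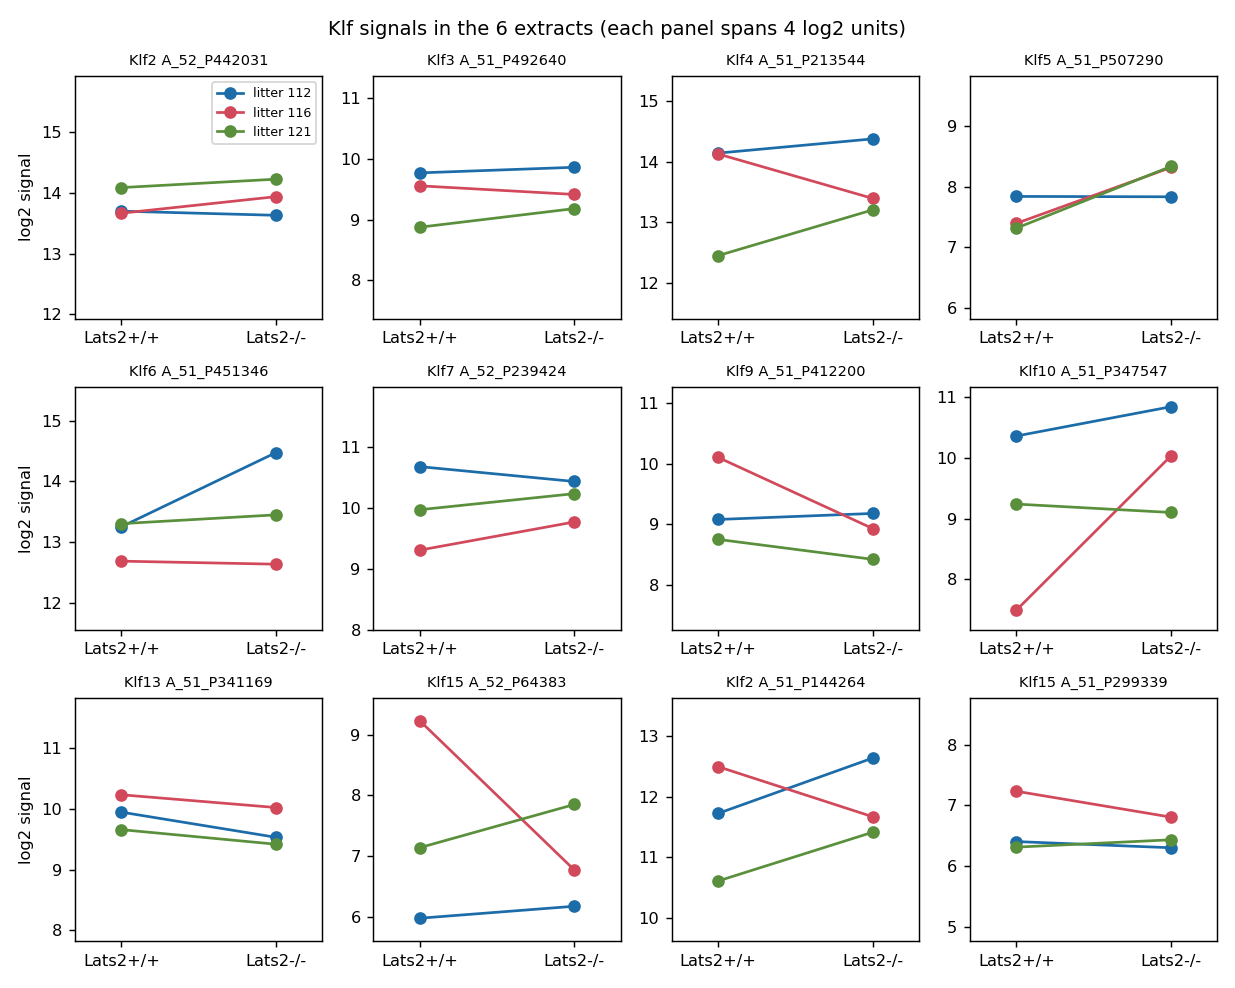
Log2 signal (vertical axis, 4 log2 units in each panel) of 12 Klf probes in the Lats2+/+ and Lats2-/- extracts (horizontal axis), with a line joining the extracts of each litter. The Lats2+/+ extract of litter 116 is the lowest point for Klf10 (7.49) and the highest for Klf9 (10.10) and the representing Klf15 probe (9.23). The Klf5 lines of litters 116 and 121 rise from 7.40 to 8.32 and from 7.32 to 8.33, while that of litter 112 runs from 7.84 to 7.83.

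Lats2+/+ extracts of different litters were often further apart than the genotypes of 1 litter. The range of the 3 Lats2+/+ levels exceeded the largest litter ratio in absolute value for 13 of the 16 Klf probes (58.8% of all kept probes), the exceptions being Klf5 and both probes of Klf6. For Klf10 that range was 2.87. The representing Klf15 probe is among the 13, but its lowest Lats2+/+ level, in litter 112, was at background, so the size of its range is not given. The levels of the 3 Lats2-/- and the 3 Lats2+/+ extracts overlapped for every Klf probe, whereas they did not overlap for 6.13% of all kept probes. With the 6 levels of each of the 16 probes put in order, there were 80 pairs of neighbours, of which 26 lay within 2 array SDs and are not told apart. The SD between litters ran from 0.11 for Klf13 to 1.70 for Klf15 and was above the median of all kept probes, 0.25, for 13 Klf probes, while the SD of arrays within a litter ran from 0.02 to 0.24.

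**Figure D3:**
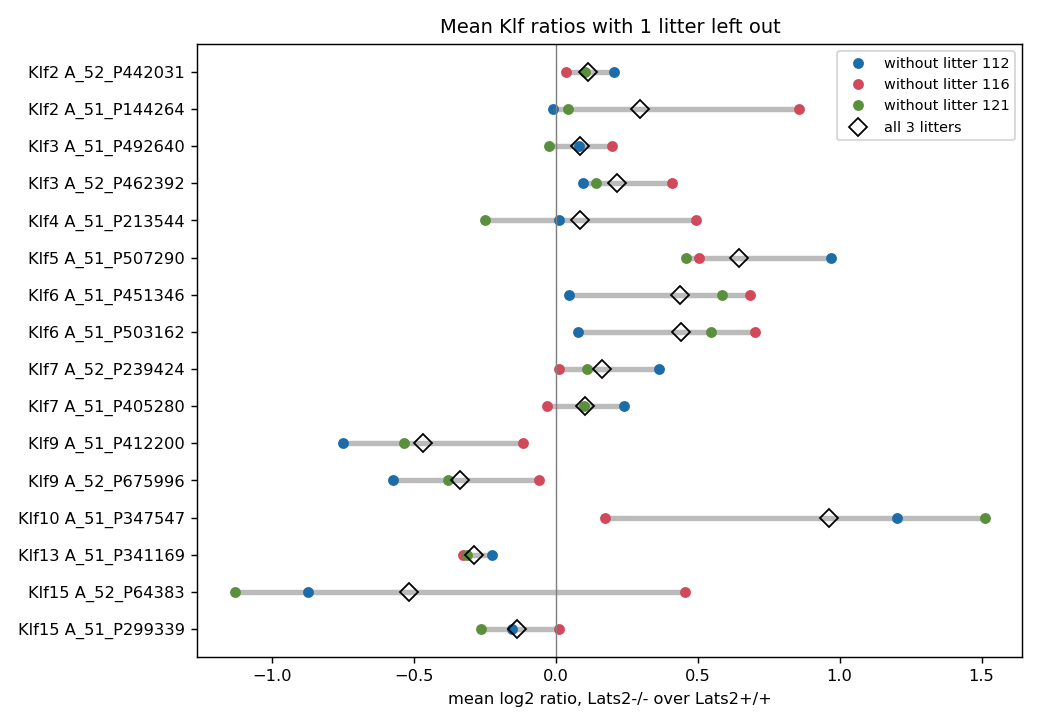
Mean log2 ratio of Lats2-/- over Lats2+/+ (horizontal axis) for each kept Klf probe (vertical axis) over all 3 litters (diamonds) and with 1 litter left out (circles, coloured by the litter removed). The means of all kept probes of Klf5, Klf6, Klf9, Klf10 and Klf13 keep their sign in every case, as do those of the brighter Klf2 and Klf7 probes and the second Klf3 probe. That of the representing Klf15 probe moves from -1.13 without litter 121 to 0.45 without litter 116.

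Among the other Kruppel-like and Sp factors 9 of 15 genes were kept and 0 had an unadjusted p under 0.05, against 7.5% of 15145 genes. Klf8, a CtBP-recruiting relative of Klf3 named after its values were seen, was at -0.86, 0.97 and -1.52 in the 3 litters, where Klf4 was at 0.23, -0.73 and 0.75. All 18 cofactors and regulators of Klf proteins were kept, and 1 (5.56%) had an unadjusted p under 0.05, a share below that of all genes. It was Srf, which drives serum-responsive genes, at 0.44, 0.73 and 0.19 with a mean of 0.46 (limma unadjusted p = 0.0382, adjusted p = 0.711). The CtBP genes, the Sin3 genes and Wwp1 were among the 17 that did not pass.

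Genes tied to single Klf factors as targets were kept for 13 of 15, and 3 had an unadjusted p under 0.05 against 7.5% of 15145 genes, a count that was 1 without litter 112. Ctgf, a secreted matrix protein that is also a Yap target, was at 1.55, 1.18 and 1.67 (mean 1.47), Smad7, an inhibitor of TGF-beta signalling that Klf10 is known to repress, at 0.63, 1.08 and 0.34 (mean 0.68), and Ccnd1, the cyclin that Klf4 is known to repress, at -0.39, -0.29 and -0.60 (mean -0.43). None passed an adjusted p of 0.05 (0.634 for Ctgf, 0.711 for the others). Tagln, a contractile gene repressed by Klf4 in smooth muscle and named after its values were seen, was at -0.26, 4.10 and 0.12. The median of the 13 genes was 0.01, 1.08 and 0.08 in the 3 litters.

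Immediate early genes share an induction by serum with several Klf genes. All 14 were kept and 7 had an unadjusted p under 0.05, each higher in Lats2-/- cells, against 7.5% of 15145 genes in either direction, and none passed after adjustment. Without litter 112 the count was 8, of which 5 were higher and 3 lower. Their median log2 ratio was 2.57, 0.48 and 0.84 in litters 112, 116 and 121, beside 0.10, -0.10 and 0.20 for the 10 Klf genes. The largest means were those of Egr2 (3.94), Fos (2.95), Nr4a1 (2.85) and Egr1 (2.71), transcription factors that serum induces early, with Egr1 at 4.39, 2.93 and 0.81. Of the serum-responsive Klf genes, Klf4, Klf6, Klf10 and Klf2 (by the second probe, at 0.91) were higher in the Lats2-/- extract of litter 112 beyond array error, while the brighter Klf2 probe was not told apart from 0. In litter 116 the ratio of Klf10 was larger (2.54), and those of Klf4 and Klf2 (by the second probe) were below 0. In litter 121 Klf4 and the second Klf2 probe were at 0.75 and 0.80 and Klf10 was at -0.14, each beyond array error. The 2 Klf6 probes were at -0.05 and -0.08 in litter 116, within array error, and at 0.15 and 0.24 in litter 121, beyond it. The part of the early serum response in the Klf values was not tested.

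**Figure D4:**
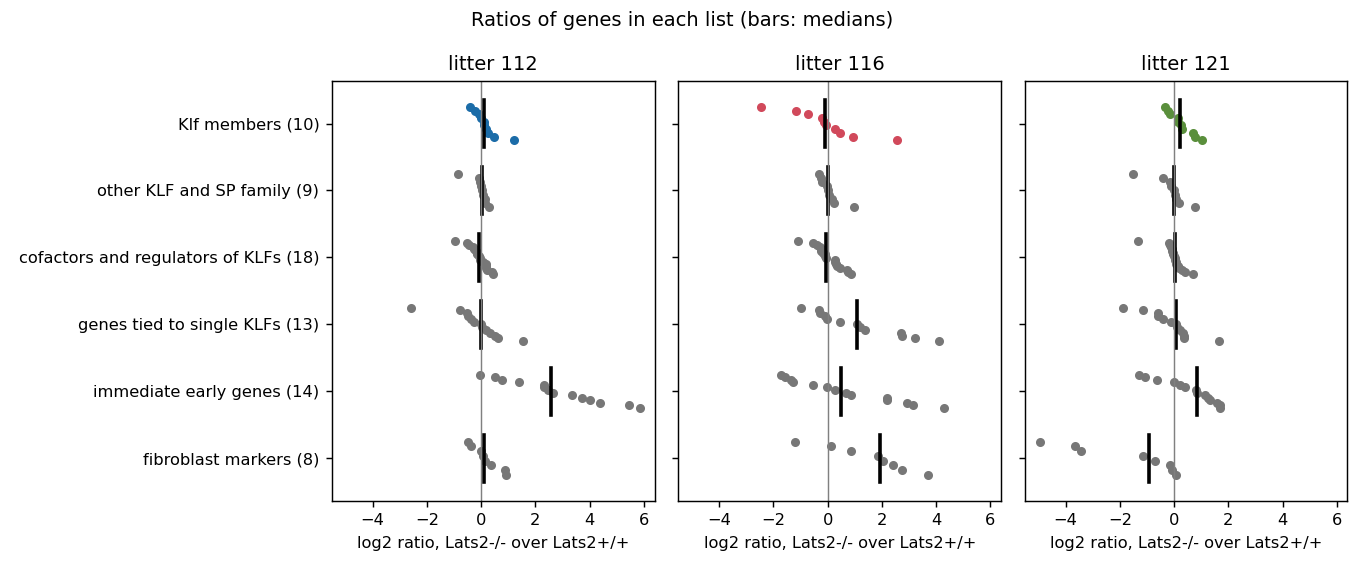
Log2 ratios of Lats2-/- over Lats2+/+ (horizontal axis) in each litter (panels) for the 10 Klf genes, 4 related gene lists and the fibroblast markers (rows, with the number of genes), each circle 1 gene and each bar a median. The Klf genes centre near 0 in every litter and spread most in litter 116, while the median of the immediate early genes reaches 2.57 in litter 112 and that of the fibroblast markers 1.95 in litter 116.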

How the data were processed

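The authors hybridised RNA from 3 litter pairs of MEFs to 8 two-colour Agilent whole mouse genome arrays with the dyes exchanged. The deposited scanner files, extracted by Agilent's Feature Extraction software (10.7.3.1 in the headers of the files, 10.5.1.1 in the submitters' processing notes), hold each spot's mean intensity and local background on a linear scale, not normalized. The deposited value table holds the authors' log10 ratios, which differed from the scanner's processed ratios by at most 0.005.

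Intensities were corrected by normexp (offset 50) and loess in limma 3.58.1 (R 4.3.3), and 860 outlier spots were left out. Array ratios were averaged into 1 value a litter, so that the arrays of a litter count as 1 replicate, paired by litter and array. Levels were scaled between arrays by Aquantile. Litter means were tested against 0 by limma over the 22642 kept probes with Benjamini-Hochberg adjustment, and a second limma fit of the 8 arrays compared extracts over array error only. Litters 112 and 116 lay on slide 1 and litter 121 on slide 2, so slide and litter 121 cannot be told apart. The number of litters limits the precision.

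All probes of the members are given, other genes by list (those with an unadjusted p under 0.05, at most 4 by size). Probes are placed by the files' mm8 coordinates, without gene parts, and promoters by RefSeq on GRCm38.p6. The members, lists and alternatives were chosen with earlier results of these data known. The fits were tested on simulated data.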

Additional observations from a re-analysis of the deposited data

How the results depend on the processing

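Under 9 alternatives that kept all 3 litters (another offset, the processed signals, the deposited table, median centring, no filter, a strict filter, no replicate block, and litter or slide as a random block), 142 of 142 Klf means kept their direction and their side of the threshold; the strict filter dropped both Klf15 probes, so they have no value there. With no filter, the strict filter or no replicate block a mean is the same number as in the main fit, so its direction could not change. The deposited table nearly repeats the processed signals. The count of Klf probes past the adjusted threshold, and of those past both 2-fold and an unadjusted p of 0.05, was 0 in each setting; over all probes the adjusted threshold was passed by 1.51% when litter was the random block, by 3.17% when slide was, and by 0% otherwise. At an unadjusted p under 0.05 the count was 0 of 16, but (with the share of all probes) 1 with median centring (6.81%), 1 with no filter (6.37%) and 1 by the methods' t-test (5.95%), Klf13 each time, 1 with no replicate block (Klf5; 2.45%), 5 with litter as a random block (Klf5, Klf6, Klf9, Klf10 and Klf13; 13.2%) and 2 with slide as a random block (Klf5 and Klf13; 17.8%), with 0 to 1 when a litter was left out (from 5.06% to 6.43%). With median centring in place of loess, the probes whose litters differed over array error fell from 15 to 1, and the differences within single litters from 36 to 1; the median SD of arrays within litters was then 0.70 in place of 0.10. Leaving out a litter kept 42 of 48 means and turned 6: the second Klf2 probe to -0.011 without litter 112 (range over the litters left out to 0.86), Klf3 to -0.025 (to 0.20) and Klf4 to -0.25 (to 0.49) without litter 121, and, without litter 116, the second Klf7 probe to -0.031 (to 0.24) and the Klf15 probes to 0.45 (from -1.13) and 0.0095 (from -0.26), both of which include litter 112, where the Klf15 probes were above background on 0 Lats2-/- arrays, so that their signs there are not established. As alternatives added after the data were seen, the lists were refitted without each litter and on processed signals: genes tied to single Klf factors with an unadjusted p under 0.05 went from 3 (2 higher, 1 lower) to 1 without litter 112, 4 without litter 116 (1 higher, 3 lower), 4 without litter 121 and 2 on processed signals, and immediate early genes from 7 to 8 (5 higher, 3 lower), 5, 6 and 7, all higher in the last 3 cases.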
